A study of Mus musculus with 4 samples.

Results

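The CD28 family receptors Cd28, Icos, Ctla4, Pdcd1 and Btla were followed in donor T cells from mice with acute graft-versus-host disease. All 5 genes of the list were found by name among the 31053 genes of each of 4 single-cell matrices. Recipient BALB/c mice had been lethally irradiated with 900 cGy and given T cell-depleted bone marrow of CD45.1+ CD45.2+ C57BL/6 mice. The same infusion held regulatory T (Treg) cells, sorted as CD4+ Foxp3-GFP+ CD25hi from CD45.2+ CD45.1- spleens. CD4+ and CD8+ conventional T (Tconv) cells of CD45.2- CD45.1+ wild-type mice, depleted of Treg cells, followed 2 days later. At 8 days after induction of the disease, living donor T cells (H-2Kb+ and TCRb+) were sorted from the recipients' spleens, tagged with antibodies to both CD45 alleles that carry a sequence, and sequenced on the 10x 3' v3 platform. The 4 libraries differed in the genotype of the Treg cells: CD226-/- TIGIT-/- (double KO), CD226+/+ TIGIT-/- (TIGIT KO), CD226-/- TIGIT+/+ (CD226 KO) and CD226+/+ TIGIT+/+ (wild type). Conventional cells and bone marrow were wild type throughout. Each library pooled 3 donor T cell preparations and each genotype had 1 library.

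Receptors of this family tune the response of a T cell whose antigen receptor is engaged. CD28 and ICOS are activating members that recruit phosphoinositide 3-kinase. CTLA-4 competes with CD28 for CD80 and CD86, and PD-1 (Pdcd1) and BTLA recruit the phosphatases SHP-1 and SHP-2. Treg cells are known for constitutive CTLA-4 and high ICOS, follicular helper T (Tfh) cells for ICOS, PD-1 and BTLA, and activated or exhausted CD8 cells for PD-1. In graft-versus-host disease, CD28 costimulation of donor T cells is a known driver and CTLA-4 and PD-1 are known brakes.

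Cd28, Ctla4 and Icos lie next to each other on the forward strand of mouse chromosome 1 (GRCm38, GENCODE annotation), at chr1:60716800-60773359, chr1:60887000-60915832 and chr1:60977927-61000320, a stretch of 284 kb. Pdcd1 lies 33.0 Mb further on the same chromosome on the reverse strand, at chr1:94038305-94052553. Btla lies on chromosome 16, at chr16:45224315-45257670. The bases before the RefSeq starts of Ctla4 and Pdcd1 are shown because these genes differed in opposite directions between Treg-origin and conventional cells in the results that follow. Each run covers 250 bases on the gene's own strand, ending next to the start (RefSeq, GRCm38.p6; chr1:60908775-60909024 on the forward strand and chr1:94052554-94052803 on the reverse strand). The RefSeq start of Ctla4 differs from the GENCODE one, so its window lies inside the span given above. The Pdcd1 window adjoins its span, and the Btla window, not shown, ends just inside its own. Capitals mark TTTCC, which is the core GGAAA bound by NFAT factors read on the opposite strand.
Ctla4: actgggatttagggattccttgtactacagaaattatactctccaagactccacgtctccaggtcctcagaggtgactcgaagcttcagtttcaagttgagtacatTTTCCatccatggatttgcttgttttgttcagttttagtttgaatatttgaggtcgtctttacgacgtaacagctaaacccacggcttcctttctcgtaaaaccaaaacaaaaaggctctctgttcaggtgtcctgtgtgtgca
Pdcd1: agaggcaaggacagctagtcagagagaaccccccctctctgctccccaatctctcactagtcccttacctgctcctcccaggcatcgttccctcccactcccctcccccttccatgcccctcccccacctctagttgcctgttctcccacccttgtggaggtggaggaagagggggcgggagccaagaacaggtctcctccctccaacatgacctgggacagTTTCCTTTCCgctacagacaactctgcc
The Ctla4 window held 1 such core, 144 bases before the start, and the Pdcd1 window held 2 neighbouring ones, 28 and 23 bases before it. The Btla window held none, and RefSeq windows were matched for these 3 of the 5 genes. GGAAA on either strand occurred in 55.6% of 32851 windows of the same length. The AP-1 letters TGANTCA (6.75% of windows) and the forkhead core TAAACA (12.03%), searched on both strands, were in none of the 3.

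Of 39421 barcodes, 36140 were kept, with a median of 6972 to 9026.5 transcript molecules (unique molecular identifiers, UMIs) per library. Antibody counts, as CD45.1 over CD45.2 on the log2 scale, marked by a ratio below -0.6 376 (double KO), 462 (TIGIT KO), 332 (CD226 KO) and 367 (wild type) cells as Treg-origin. A ratio above 2.2 marked conventional cells, of which 11015 had more Cd8a plus Cd8b1 than Cd4 UMIs and 11761 the reverse. Treg-origin cells were the shallowest, with a median of 3921.5 to 5372 UMIs, against 8887 to 11901 in CD8 and 7039.5 to 9013 in CD4 cells. The 5 Treg markers summed to 2012 to 2208 CPM (UMIs per 1e6 UMIs of the class) in Treg-origin, 265 to 310 in CD8 and 484 to 617 in CD4 cells, although only 16.9% to 26.5% of Treg-origin cells held a Foxp3 UMI. Cd226 stood at 4.39 and 4.01 CPM in Treg-origin cells of the double KO and CD226 KO, against 32.5 and 31.2 CPM in TIGIT KO and wild type. Tigit was at 5.15 to 9.11 CPM in Treg-origin cells of all 4 libraries, and where its deletion lies relative to the sequenced 3' end is not given, so this does not check the genotype. Xist, from the inactive X of female cells, stood at 685 to 758 CPM in Treg-origin and at most 3.16 CPM in conventional cells, so origin and donor sex cannot be told apart in any comparison of the classes. The libraries without TIGIT carry lane 4 in their names and the others lane 3, so lane and TIGIT status cannot be told apart either. Pairs of libraries shared 16 to 27 kept barcodes, at most 0.353% of the smaller library.

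Ctla4 was the member that set Treg-origin cells apart most. The 4 Treg-origin sums held 281 (double KO), 201 (TIGIT KO), 178 (CD226 KO) and 205 CPM (wild type), against 53.1, 33.5, 45.7 and 44.3 CPM in CD4 cells and 29.0, 27.5, 36.0 and 27.0 CPM in CD8 cells of the same libraries. All Treg-origin values lay above all conventional ones. Ctla4 averaged 216 ± 44.6 CPM in Treg-origin, 29.9 ± 4.17 CPM in CD8 and 44.1 ± 8.08 CPM in CD4 cells (SD, n = 4 libraries), and edgeR's fitted fold was 4.86 over CD4 and 7.05 over CD8 cells. The adjusted p was 4.1e-10 and 3.1e-11 with edgeR's quasi-likelihood test, the library as block and Benjamini-Hochberg adjustment over all genes tested. After every cell was thinned to 2000 UMIs, a Ctla4 UMI was found in 23.8% to 28.3% of Treg-origin, 4.74% to 6.57% of CD8 and 5.56% to 8.68% of CD4 cells. Unthinned, the shares were 38.1% to 45.5%, 16.8% to 23.9% and 15.8% to 23.1%. General T cell markers were also higher in Treg-origin cells, 4 of 4 against either class (medians of 0.42 over CD4 and 0.58 over CD8 on the log2 scale), and so were markers of other blood cells. Neutrophil markers summed to 3.90 to 1717 CPM in Treg-origin, 3.88 to 73.4 CPM in CD8 and 3.18 to 124 CPM in CD4 cells, with 2 of 4 called higher against CD4 and 4 of 4 against CD8 cells. Erythroid markers summed to 16.2 to 996, 20.5 to 60.0 and 18.0 to 54.0 CPM, with 3 of 4 and 4 of 4 called higher, and macrophage markers to 15.6 to 143, 20.7 to 34.6 and 18.7 to 28.5 CPM, with 3 and 1 of the 4 tested called higher. Up to 2 of the 4 neutrophil markers were at 0 in a Treg-origin sum. In Treg-origin cells the 3 sums stood at 3.90, 22.4 and 15.6 CPM in the double KO and at 1717, 42.9 and 97.6 CPM in the wild type. Ctla4 was at 281 CPM in the first and 205 CPM in the second. The part of these markers in the differences of Ctla4 and the other members was not tested.

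Icos, the costimulator that Tfh and Treg cells use, was also highest in Treg-origin cells. It was at 274, 243, 257 and 193 CPM there (double KO, TIGIT KO, CD226 KO, wild type), against 164, 135, 161 and 142 CPM in CD4 cells. CD8 cells held 76.0, 74.8, 80.1 and 76.8 CPM. The 3 classes did not overlap, with wild-type Treg-origin cells the lowest of theirs. The fold fitted by edgeR was 1.58 over CD4 cells (adjusted p 2.7e-06) and 3.04 over CD8 cells (1.1e-10), with Treg-origin cells higher in 4 of 4 libraries each time.

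Cd28, the primary costimulatory receptor, was not told apart between Treg-origin and CD4 cells. Treg-origin cells had 191, 159, 188 and 174 CPM and CD4 cells 183, 178, 186 and 169 CPM in the same order of libraries. These ranges overlapped. The log2 difference was -0.02 (edgeR adjusted p 0.80), and the libraries' own log2 ratios averaged -0.01 ± 0.10 (SD, n = 4). Both exceeded CD8 cells, which had 113 to 126 CPM, and the fold fitted by edgeR for Treg-origin cells was 1.44 (adjusted p 3.7e-06).

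Pdcd1, the gene of PD-1, ran the other way. Treg-origin cells held 127, 75.5, 71.5 and 78.9 CPM (double KO, TIGIT KO, CD226 KO, wild type). CD8 cells held 140, 133, 150 and 125 CPM, and CD4 cells 182, 120, 166 and 138 CPM. The double-KO value overlapped both conventional ranges and the other 3 Treg-origin values lay below them. Treg-origin cells were lower than CD4 cells by a log2 difference of -0.80 (edgeR adjusted p 1.2e-05) and lower than CD8 cells by -0.68 (7.1e-05), in 4 of 4 libraries. Stricter antibody cuts left only the 704 Treg-origin cells below a ratio of -1.5 and conventional cells above 3. Pdcd1 then averaged 125 ± 57.0 CPM in Treg-origin and 132 ± 12.6 CPM in CD8 cells, a log2 difference of -0.08 (edgeR adjusted p 0.65). In the double-KO library the direction turned against both classes with these cuts, at 206 CPM in Treg-origin, 184 CPM in CD4 and 142 CPM in CD8 cells. Against CD8 cells it also turned in that library with a stricter cell filter (146 and 141 CPM) and with cells thinned to 2000 UMIs (160 and 137 CPM).

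Btla, which binds the TNF receptor family member HVEM, was the rarest member in each class. Its levels were 22.9, 17.2, 21.7 and 13.0 CPM in Treg-origin cells, 14.9, 13.7, 16.8 and 14.3 CPM in CD8 cells and 29.8, 24.5, 29.7 and 27.2 CPM in CD4 cells. CD4 cells lay above all others, and the Treg-origin and CD8 ranges overlapped. Treg-origin cells were lower than CD4 cells by -0.60 on the log2 scale (edgeR adjusted p 0.0011; -0.41 and 0.060 with the stricter cuts). They did not differ from CD8 cells at the threshold (0.28, adjusted p 0.089), which 4 of the alternatives turned into a call.

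Among the 5 members, 2 were higher and 2 lower in Treg-origin than in CD4 cells, where 42% of the 10775 genes tested were called, 21.5% higher and 20.5% lower. Against CD8 cells, 3 were higher and 1 lower, with 52.5% of 10899 genes called, 26.1% higher and 26.4% lower. Between the conventional classes 4 members were lower in CD8 than in CD4 cells and none higher, with 46.5% of 11490 genes called and 23.7% lower. In that comparison Icos fell by a log2 difference of 0.96, Btla by 0.89, Cd28 by 0.56 and Ctla4 by 0.55 (edgeR adjusted p 2.8e-09, 3.6e-08, 3.2e-09 and 1.2e-04). Pdcd1 did not pass (-0.12, adjusted p 0.10), and reached -0.21 when the TIGIT-KO library was left out and -0.25 with stricter cuts, both called. The order of the class means was Treg-origin, CD4, CD8 for Ctla4 and Icos, CD4, Treg-origin, CD8 for Btla and Cd28, and CD4, CD8, Treg-origin for Pdcd1. Neighbours in these orders that did not differ at the threshold were Treg-origin and CD8 cells for Btla, Treg-origin and CD4 cells for Cd28, and CD8 and CD4 cells for Pdcd1.

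**Figure D1:**
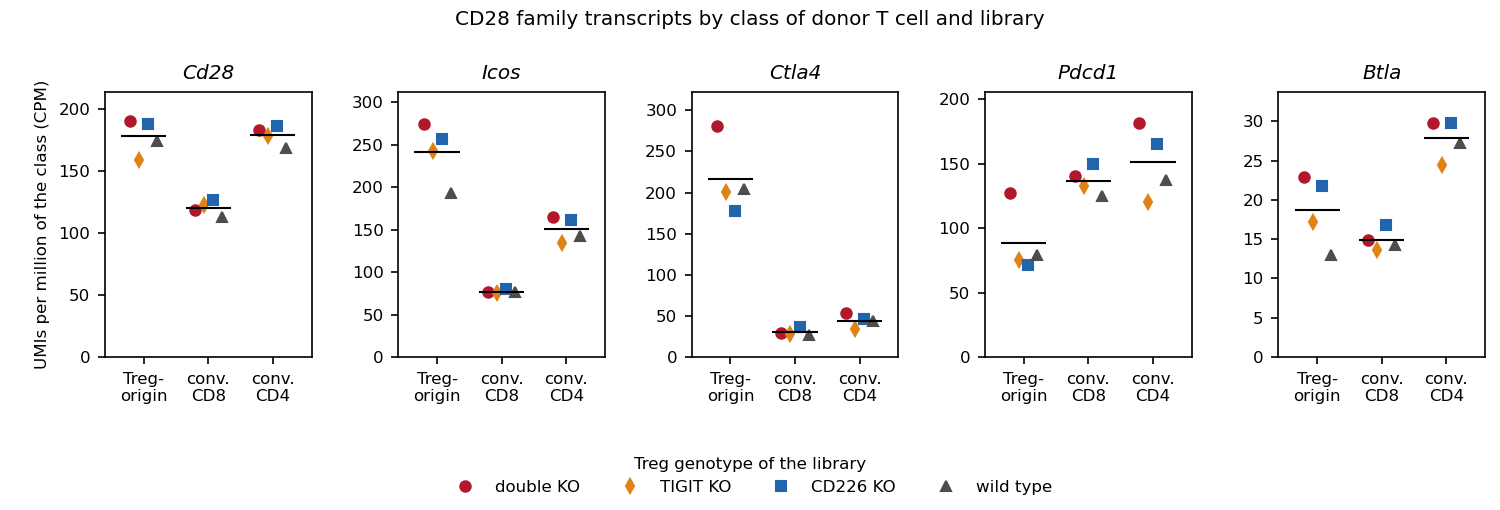
CPM of each member (vertical axes, each starting at 0) in Treg-origin, conventional CD8 and conventional CD4 cells, with 1 point per library and a line at the mean of the 4. Ctla4 in Treg-origin cells lies between 178 and 281 CPM, above every conventional value, while Pdcd1 there lies between 71.5 and 127 CPM.

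**Figure D2:**
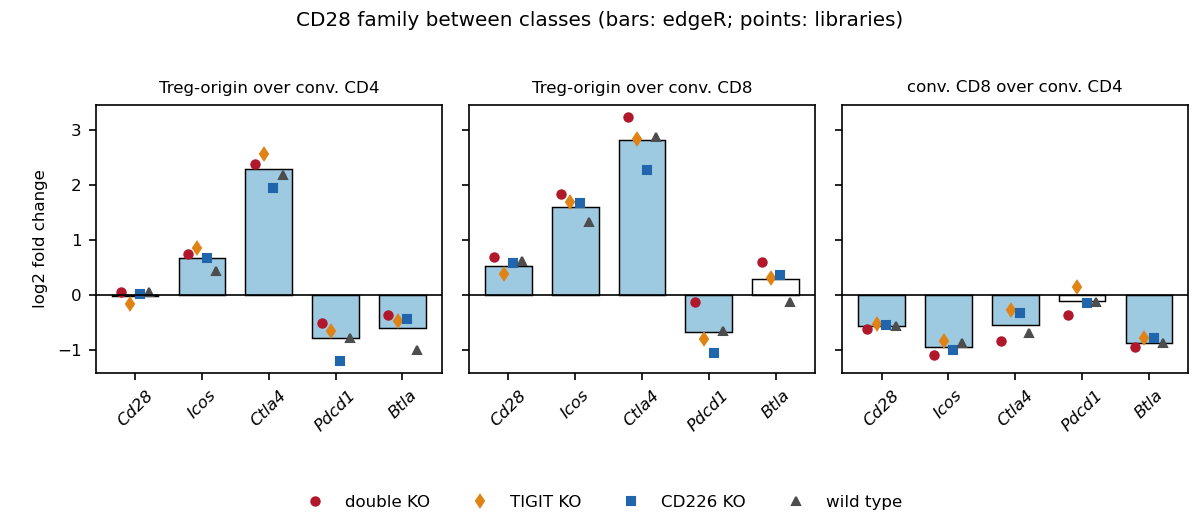
Log2 fold changes between the classes: bars are edgeR estimates, filled where the adjusted p is at most 0.05, and points are the 4 libraries' own log2 ratios of CPM plus 1. Ctla4 and Icos bars are positive and Pdcd1 bars negative for Treg-origin against either conventional class.

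In cells that carried both antibodies, which can be bone-marrow progeny or doublets, Ctla4 stood at 121, 72.4, 56.1 and 60.3 CPM (double KO, TIGIT KO, CD226 KO, wild type). Pdcd1 there was at 131, 108, 166 and 108 CPM. Ctla4 lay between the CD4 and the Treg-origin values, and Pdcd1 overlapped the ranges of all 3 classes. In barcodes with macrophage markers and no T cell marker, 1 of 31 held a Pdcd1 UMI and none held another member, which allows a share of up to 9.68% for each of those (3 of 31). Their median depth was 4815.5 to 9158.5 UMIs per library.

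The balance of activating to inhibitory transcripts, the log2 ratio of Cd28 plus Icos UMIs to Ctla4 plus Pdcd1 plus Btla UMIs, was above 0 in every class and library, with counting intervals that reach 0 in double-KO Treg-origin cells ([-0.02, 0.24]) and in CD8 cells of the CD226-KO library. It is a description over the members, without a test. In Treg-origin cells it was 0.11 (double KO), 0.45 (TIGIT KO), 0.71 (CD226 KO) and 0.31 (wild type). CD8 cells had 0.08, 0.18, 0.03 and 0.20, and CD4 cells 0.40, 0.82, 0.53 and 0.58, in the same order. CD8 cells lay below CD4 cells in 4 of 4 libraries, by 0.31 to 0.63. Treg-origin cells lay below CD4 cells in 3 libraries, by 0.27 to 0.36, and above them by 0.19 in the CD226-KO library. In the 3 libraries where Treg-origin cells lay lower, their counting intervals did not overlap those of CD4 cells. In the CD226-KO library they did ([0.548, 0.883] in Treg-origin and [0.483, 0.571] in CD4 cells). The class means were 0.40 ± 0.25 in Treg-origin, 0.12 ± 0.08 in CD8 and 0.58 ± 0.18 in CD4 cells (SD, n = 4). The direction between Treg-origin and CD4 cells thus depended on the library. The mixtures differed: the inhibitory UMIs were mostly Ctla4 in Treg-origin cells and mostly Pdcd1 in conventional cells.

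**Figure D3:**
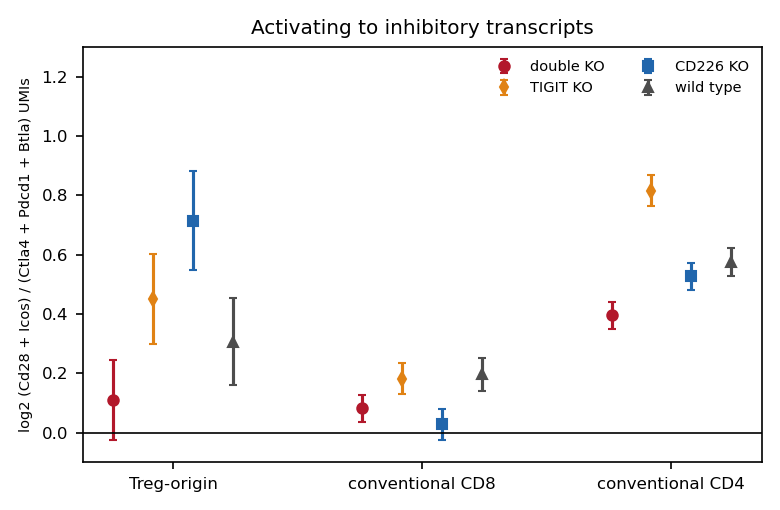
Log2 ratio of Cd28 plus Icos to Ctla4 plus Pdcd1 plus Btla UMIs per class and library, with exact 95% binomial intervals that hold counting error only. CD8 values lie between 0.03 and 0.20, below the CD4 values of 0.40 to 0.82.

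Within single cells, thinned to 2000 UMIs, both kinds of member were seen together most often in Treg-origin cells. An activating and an inhibitory transcript were found in 29.9% (double KO), 22.7%, 22.9% and 20.1% (wild type) of Treg-origin cells, in 9.52%, 7.88%, 10.7% and 9.57% of CD8 cells and in 18.1%, 13.9%, 18.3% and 16.6% of CD4 cells. The Treg-origin shares lay above all others. They were not set against the product of the shares of each kind, which also differ between the classes. Cells with none of the 5 transcripts averaged 33.2% ± 2.23 of Treg-origin, 50.4% ± 0.920 of CD8 and 37.8% ± 2.46 of CD4 cells (SD, n = 4). Icos and Ctla4 were found in the same cell 1.37 times as often as the product of their shares gives in Treg-origin cells (181 cells), 1.51 times in CD8 cells (115) and 1.60 times in CD4 cells (339). Cd28 with Pdcd1 stayed closer to the product, at 1.19, 1.05 and 1.06 times. In Treg-origin cells, Pdcd1 with Btla had the highest ratio of the 10 pairs, 2.14, from 19 cells only.

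Ctla4 UMIs were concentrated in few cells, here those with 10 or more, a limit chosen after the values had been seen. In the double-KO library 16 of 376 Treg-origin cells reached it and held 45.9% of the class's Ctla4 UMIs. The counts were 6 of 462, 3 of 332 and 7 of 367 cells in TIGIT KO, CD226 KO and wild type, with 19.5%, 13.8% and 25.0% of the UMIs. A Foxp3 UMI was held by 13 of the 32 such Treg-origin cells of all libraries, by 14 of 31 such CD8 cells and by 10 of 56 such CD4 cells. Over the whole classes 346 of 1537 Treg-origin, 231 of 11015 CD8 and 108 of 11761 CD4 cells held one. The cells rich in Ctla4 were deeper than their classes, with medians of 5329 to 7261.5 UMIs in Treg-origin, 15892 to 18918 in CD8 and 9635 to 19699 in CD4 cells, and the part of depth in these counts was not tested.

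The Treg-origin class was then divided by a Foxp3 UMI, the gene of the factor that defines Treg cells. Foxp3-positive cells held 444, 277, 225 and 190 CPM of Ctla4 (double KO, TIGIT KO, CD226 KO, wild type), against 223, 184, 159 and 211 CPM in Foxp3-negative cells. They were higher in 3 of 4 libraries and lower in the wild type. The difference was 0.49 on the log2 scale (edgeR adjusted p 0.015). Pdcd1 was lower in all 4, with 85.7, 34.0, 49.7 and 63.3 CPM in positive cells and 141, 84.7, 80.4 and 85.3 CPM in negative cells (-0.74, adjusted p 0.0032). These 2 members were among only 38 genes called of 6930 (0.548%, with 0.332% higher and 0.216% lower), and Foxp3, used for the division, is another. Neither call held when the TIGIT-KO or the double-KO library was left out: the adjusted p became 0.21 and 0.72 for Ctla4 and 0.066 and 0.095 for Pdcd1. Cd28, Icos and Btla did not pass (0.02, 0.22 and 0.16; adjusted p 0.99, 0.55 and 0.97). Neutrophil markers summed to at most 7.46 CPM in Foxp3-positive cells, against 2410 CPM in the negative cells of the wild type and 1842 CPM in those of the TIGIT KO (2.64 and 4.82 CPM in double KO and CD226 KO). Erythroid markers reached at most 55.7 CPM in positive cells, against 1392 CPM in negative cells of the CD226 KO, and the part of both in the result was not tested.

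Conventional cells, depleted of Treg cells before transfer, held few with a Foxp3 UMI, and these were rich in Ctla4. This division was chosen after the values above had been seen and has no test. Foxp3-positive CD4 cells (19, 21, 26 and 42 cells) held 414, 274, 393 and 232 CPM of Ctla4 in the double-KO, TIGIT-KO, CD226-KO and wild-type libraries. Foxp3-positive CD8 cells (49, 52, 105 and 25 cells) held 257, 148, 217 and 191 CPM. All 8 values lay above the 27.0 to 53.1 CPM of the whole conventional classes. Pdcd1 stood at 142, 118, 70.5 and 84.1 CPM in the CD4 and 109, 117, 111 and 97.2 CPM in the CD8 cells with Foxp3. Xist, which marked Treg-origin cells, was at 0 to 15.0 CPM in the Foxp3-positive CD4 cells and 4.20 to 46.0 CPM in the CD8 ones, against 620 to 921 CPM in the Foxp3-positive Treg-origin cells.

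**Figure D4:**
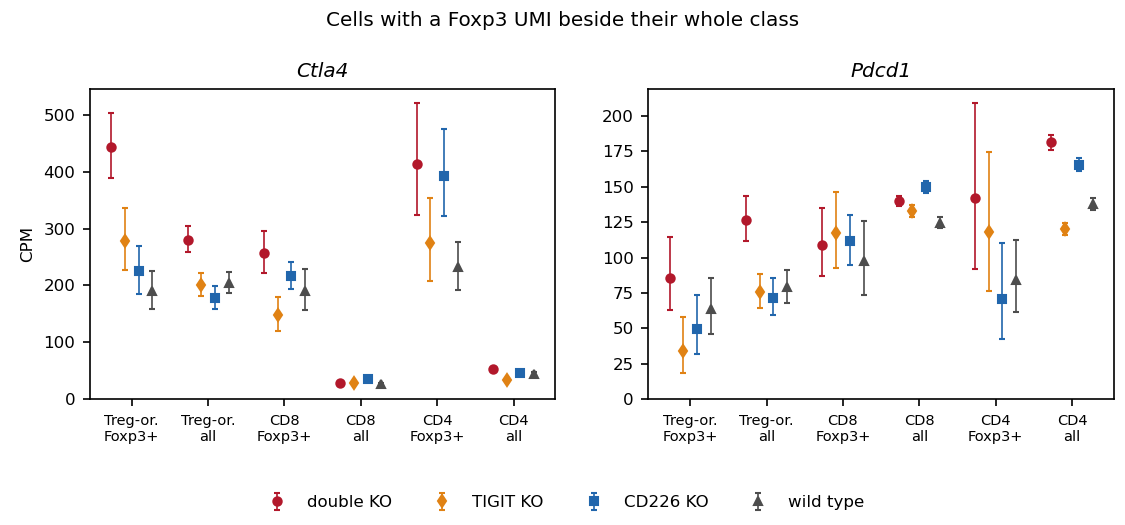
CPM of Ctla4 and Pdcd1 in cells with a Foxp3 UMI and in all cells of their class, per library, with exact 95% Poisson intervals for counting error only. Ctla4 in Foxp3-positive conventional cells lies between 148 and 414 CPM, above the whole CD8 and CD4 classes.

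Conventional CD4 cells with a UMI of Cxcr5, the chemokine receptor that guides Tfh cells to follicles, were higher in all 5 members. There were 67, 90, 81 and 91 such cells (double KO, TIGIT KO, CD226 KO, wild type), at a median of 4141.5 to 6041 UMIs, against 7110.5 to 9112 in the others. Btla showed the largest difference, with 78.1, 70.1, 74.8 and 90.6 CPM in Cxcr5-positive cells and 29.0, 23.5, 28.7 and 25.6 CPM in negative cells, and no overlap (1.53, edgeR adjusted p 1.1e-16). Icos averaged 290 ± 36.3 CPM in positive and 148 ± 14.8 CPM in negative cells (0.94, 1.1e-18). Ctla4 (0.83), Cd28 (0.77) and Pdcd1 (0.56) followed, each called and higher in 4 of 4 libraries, in a comparison that called 24.3% of 10582 genes (11.6% higher). Pdcd1 averaged 222 ± 16.4 CPM in positive and 150 ± 28.2 CPM in negative cells. Markers of B cells, which also transcribe Cxcr5 and Btla, were at 0 CPM in Cxcr5-positive cells of 3 libraries and at 3.79 CPM in the TIGIT-KO one, against 3.28 to 5.23 CPM in negative cells. The 5 Treg markers summed to 545 to 844 CPM in positive and 483 to 611 CPM in negative cells. General T cell markers were called higher as well, 4 of 4 with a median of 0.52, and Cd4 by 0.42, beside -0.018 for all genes, and the part of these lists in the result was not tested. Bcl6, the Tfh transcription factor (24.1 and 1.97 CPM), Tox (115 and 33.3 CPM) and Il21 (46.3 and 15.6 CPM) were higher in Cxcr5-positive than negative cells, and Tbx21, the Th1 factor, lower (22.9 and 56.1 CPM).

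Cells with a UMI of the proliferation marker Mki67 had lower CPM of most members, and of general T cell markers as well. Of the 4 T cell markers, 3 were lower in each class, with medians of -0.54 in Treg-origin, -0.35 in CD8 and -0.39 in CD4 cells, beside member medians of -0.33, -0.22 and -0.35. Of the 5 Treg markers, 4 were lower in Treg-origin and in CD4 cells and 3 in CD8 cells, and 1 was higher in each conventional class. Neutrophil markers reached 3564 CPM in Mki67-positive Treg-origin cells of the wild type and 3001 CPM in negative ones of the TIGIT KO, and erythroid ones 2357 CPM in positive cells of the CD226 KO. The part of these lists in the differences was not tested. In CD4 cells all 5 were lower: Btla by 0.59, Icos by 0.38, Pdcd1 by 0.35, Ctla4 by 0.34 and Cd28 by 0.31 on the log2 scale, each in 4 of 4 libraries, with 58.1% of 10633 genes called and 28.6% lower. In Treg-origin cells Pdcd1 showed the largest difference, with 94.1, 46.0, 60.1 and 59.4 CPM in Mki67-positive and 159, 105, 79.7 and 97.0 CPM in negative cells (-0.79, edgeR adjusted p 4.3e-06). Icos, Ctla4 and Btla were also called lower (-0.33, -0.33 and -0.66), where 31.2% of 7152 genes were called and 14.4% lower, and Cd28 was not (-0.23, adjusted p 0.0502). Ctla4 there was higher in the double-KO library, 286 CPM in positive and 275 CPM in negative cells. The call for Ctla4 was lost without the wild-type or the TIGIT-KO library (adjusted p 0.28 and 0.12), that for Icos without the TIGIT-KO library (0.056) and that for Btla without any 1 of the CD226-KO, TIGIT-KO and double-KO libraries (0.23, 0.072 and 0.081). In CD8 cells Ctla4 (-0.45), Btla (-0.32), Cd28 (-0.22) and Icos (-0.19) were lower, with 40.7% of 10771 genes called and 20.1% lower (Icos and Btla lost the call without the wild-type library, adjusted p 0.18 and 0.12, and Btla also without the CD226-KO library, 0.069). Mki67-positive cells were deeper in each class, at 9172 and 4530 UMIs in wild-type Treg-origin cells, for example. Lower CPM therefore need not mean fewer UMIs per cell. Unthinned, a Cd28 UMI was found in 72.1% to 76.3% of Mki67-positive and 62.3% to 68.4% of negative CD4 cells. In CD8 cells these shares were 63.8% to 69.6% and 47.7% to 62.9%. The differences were also taken with every cell thinned to 2000 UMIs. The division by Mki67 stayed on unthinned counts, so thinning cannot remove the part of depth in it. All 5 members stayed called lower in CD4 cells (-0.26 to -0.70) and the same 4 in CD8 cells (-0.25 to -0.56). In Treg-origin cells Pdcd1 stayed called (-0.72, edgeR adjusted p 0.0020), Icos and Ctla4 did not (-0.25 and -0.23, adjusted p 0.11 and 0.20), and Btla was left too sparse to test.

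Pdcd1 in CD8 cells was the exception. Mki67-positive CD8 cells held 140, 135, 152 and 123 CPM (double KO, TIGIT KO, CD226 KO, wild type) and negative cells 139, 113, 134 and 144 CPM. These values overlapped, with positive cells higher in 3 libraries and lower in the wild type (-0.0025 on the log2 scale, edgeR adjusted p 0.98). In CD4 cells the corresponding values were 171, 112, 154 and 131 CPM in positive and 214, 149, 200 and 163 CPM in negative cells. The Mki67 difference in CD8 cells exceeded that in CD4 cells by 0.39 on the log2 scale (edgeR interaction term, adjusted p 0.010), in a test that called 10.3% of 10986 genes and 2.54% in the direction of Pdcd1. Without the CD226-KO library this was 0.34 (adjusted p 0.11). The interaction was not called for the other 4 members (-0.09 to 0.30).

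**Figure D5:**
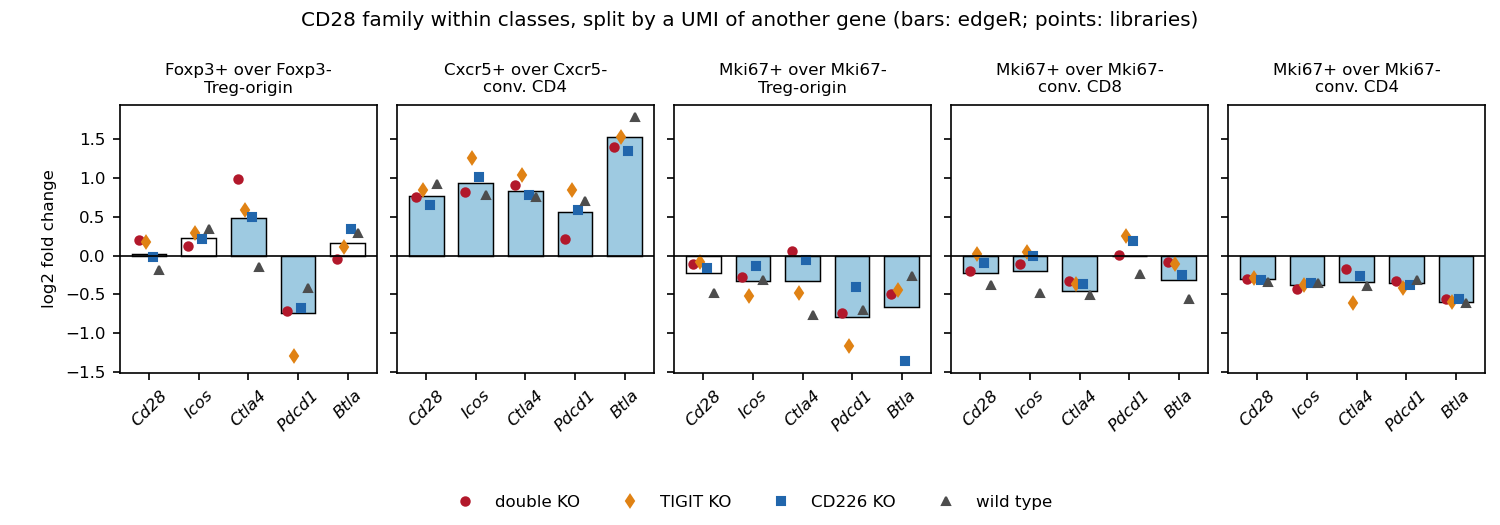
Log2 fold changes of the members within a class, between cells with and without a UMI of Foxp3, Cxcr5 or Mki67: bars are edgeR estimates, filled where the adjusted p is at most 0.05, and points are the 4 libraries' own log2 ratios of CPM plus 1. All Cxcr5 bars lie above 0, with Btla at 1.53, and most Mki67 bars lie below 0.

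Transcripts of the family's ligands were found at low levels in the sorted classes. Pdcd1lg2, which encodes PD-L2, averaged 45.8 ± 3.66 CPM in Treg-origin, 14.2 ± 2.40 CPM in CD8 and 23.5 ± 1.26 CPM in CD4 cells (SD, n = 4). Cd274, which encodes PD-L1, averaged 22.9 ± 6.58, 7.17 ± 0.742 and 9.28 ± 0.648 CPM. Both PD-1 ligands were higher in Treg-origin than in CD4 cells (0.95 and 1.28; edgeR adjusted p 5.5e-07 and 5.6e-05), opposite to Pdcd1 itself. Of the 6 ligands, 3 were higher and none lower in Treg-origin than in CD4 cells, the third being Cd86 (8.54 and 5.31 CPM, 0.64, adjusted p 0.026). Of all genes tested, 21.5% were higher and 20.5% lower. Cd80 (7.67 and 5.19 CPM), Icosl (5.97 and 5.35 CPM) and Tnfrsf14 (0.827 and 0.992 CPM) did not pass. Against CD8 cells 4 were higher, Cd80 and Icosl joining the PD-1 ligands, where 26.1% of all genes were higher. In CD8 against CD4 cells Cd86 was higher and Cd80, Icosl, Cd274 and Pdcd1lg2 lower, where 23.7% of all genes were lower. Macrophages transcribe several of these ligands, and 3 of 4 macrophage markers tested were called higher both in Treg-origin and in CD8 than in CD4 cells. Whether ligand transcripts came from the T cells was not tested.

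Among genes of CTLA-4 traffic within the cell, Trat1 stood out. This adaptor, which promotes transport of CTLA-4 to the cell surface, averaged 61.1 CPM in Treg-origin, 2.86 CPM in CD8 and 9.37 CPM in CD4 cells (log2 2.70 against CD4 and 4.39 against CD8; edgeR adjusted p 3.4e-09 and 7.8e-12). Of the 6 genes of this list, 2 were higher and none lower in Treg-origin than in CD4 cells, the other being Rab11a (121 and 96.7 CPM, 0.31), with a list median of 0.10 against 0.01 for all genes tested. Of all genes, 21.5% were higher there. Against CD8 cells 3 were higher, among them Lrba (29.2 and 20.2 CPM), which shields CTLA-4 from lysosomes, and 26.1% of all genes were higher.

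The list of 15 genes for tail partners and proximal signalling was mixed. Treg-origin cells were higher in 4 and lower in 3 against CD4 cells, with a median of -0.01 beside 0.01 for all genes. Of all genes tested, 21.5% were higher and 20.5% lower. Pik3r1, the regulatory subunit that binds the CD28 and ICOS tails, was higher (66.8 and 48.6 CPM, 0.45), as was Grb2 (218 and 178 CPM). The phosphatases that PD-1 and BTLA recruit were both lower: Ptpn6 (SHP-1) at 95.9 CPM in Treg-origin and 179 CPM in CD4 cells (-0.91, edgeR adjusted p 4.9e-07), and Ptpn11 (SHP-2) at 39.8 and 58.0 CPM (-0.55, 2.0e-05). Against CD8 cells 3 of the 15 were higher and 4 lower, where 26.1% and 26.4% of all genes were. In CD8 against CD4 cells 4 were higher and 5 lower, where 46.5% of all genes were called and 23.7% lower.

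Of 8 genes induced by costimulation, 3 were higher and 3 lower in Treg-origin than in CD4 cells, where 21.5% and 20.5% of all genes tested were. Il10 (52.2 and 10.4 CPM, 2.30) and Il4 (47.2 and 16.2 CPM, 1.58) were higher, and Il21 (3.05 and 16.3 CPM, -2.50) and Il2 (2.40 and 6.17 CPM, -1.36) lower, all called by edgeR. In CD8 against CD4 cells 7 of the 8 were lower and none higher, with a median of -1.32 beside -0.0012 for all genes, led by Il4 and Cd40lg (4.44 and 21.2 CPM, -2.26). Of all genes tested there, 23.7% were lower. Of 10 transcription factors tied to the members, 4 were higher and 2 lower in Treg-origin than in CD4 cells, with a median of 0.0082, where 21.5% and 20.5% of all genes were, Foxp3 and Prdm1 (34.2 and 17.2 CPM) leading the first and Tbx21 (25.6 and 55.4 CPM) the second.

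Over the 12 sums of 3 classes and 4 libraries, the levels of Icos and Ctla4 ran together (Pearson r 0.89), as did Cd28 and Icos (0.88), while Ctla4 and Pdcd1 ran against each other (-0.68). In single thinned cells, Ctla4 and Pdcd1 were instead found together 1.23 (Treg-origin), 1.17 (CD8) and 1.39 times (CD4) as often as the product of their shares. The correlations are descriptions, since sums of 1 library share its depth and cells of 1 class share their type. Among 5158 genes, the pattern most like that of Ctla4 was found for Birc2 (r 0.99), N4bp2l1 and Tank, and most like that of Icos for Slfn2 (0.99), Slfn1 and Foxn3. Cd28 was matched best by Faah (0.98), AU020206 and Cytip. Pdcd1 was matched best by Tmem163 (0.95), Dgcr2 and Arglu1, and Btla by Pou2f2 (0.94), Map2k4 and Ei24.

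The genotypes were compared as single libraries, without a test, by ratios of CPM with exact 95% intervals for counting error. In Treg-origin cells the double KO had the highest level of each member, although its Cd28, Icos and Btla lay within counting error of the CD226 KO (ratios of 1.01 [0.873, 1.18], 1.07 [0.939, 1.21] and 1.05 [0.673, 1.66]). The contrasts share the double-KO library. Wild-type CD4 cells of that library were also the highest of their class in Icos, Ctla4, Pdcd1 and Btla, as given below. Markers of other cells differed between these Treg-origin sums: neutrophil markers stood at 3.90, 1506, 4.58 and 1717 CPM (double KO, TIGIT KO, CD226 KO, wild type), erythroid ones at 22.4, 16.2, 996 and 42.9 CPM and macrophage ones at 15.6, 143, 44.1 and 97.6 CPM. Their part in the genotype ratios was not tested. The double-KO Pdcd1 level of 127 CPM was 1.68 times [1.37, 2.06] that of the TIGIT KO at 75.5 CPM, 1.77 times [1.43, 2.21] that of the CD226 KO at 71.5 CPM and 1.61 times [1.32, 1.95] that of the wild type at 78.9 CPM. The background of ratios past 1.5-fold in either direction was 3.5%, 4.02% and 2.86% of 5171 genes in these contrasts (3.25% for CD226 KO and 2.17% for TIGIT KO over wild type). CD226 loss with TIGIT present left Pdcd1 at a ratio of 0.906 [0.716, 1.14]. Thinned to 2000 UMIs, 20.1% of double-KO Treg-origin cells held a Pdcd1 UMI, against 14.6% in TIGIT KO, 11.1% in CD226 KO and 13.3% in wild type.

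Ctla4 in Treg-origin cells was 1.58 times [1.37, 1.82] as high in the double KO as in the CD226 KO, 1.40 times [1.23, 1.59] as high as in the TIGIT KO and 1.37 times [1.21, 1.55] as high as in the wild type. The share of thinned cells with a Ctla4 UMI did not follow: it was 26.8% in the double KO, 25.9% in TIGIT KO, 23.8% in CD226 KO and 28.3% in wild type. Each positive cell held 3.76 UMIs in the double KO, before thinning, and 2.39, 2.43 and 2.83 UMIs in the others. Icos was higher in each KO than in the wild type, at ratios of 1.42 [1.25, 1.61] in the double KO, 1.26 [1.11, 1.43] in the TIGIT KO and 1.33 [1.17, 1.52] in the CD226 KO, all short of 1.5-fold. Btla ratios were 1.76 [1.09, 2.89] for double KO and 1.67 [1.01, 2.79] for CD226 KO over wild type, with the mean of 18.7 CPM under the 20 CPM used for the background. Cd28 stayed between 0.912 and 1.20 in all 5 contrasts.

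Wild-type conventional cells also differed between libraries. In CD4 cells Pdcd1 was 1.51 times [1.45, 1.59] and Ctla4 1.59 times [1.45, 1.73] as high beside double-KO Treg cells as beside TIGIT-KO Treg cells, where 0.472% of 5089 genes passed 1.5-fold (0.0393% for double KO over CD226 KO, and 0.157%, 0.118% and 0.197% for double KO, TIGIT KO and CD226 KO over wild type). CD226 loss with TIGIT present gave 1.20 [1.15, 1.26] for Pdcd1 and 1.03 [0.956, 1.12] for Ctla4. The TIGIT-KO library was the lowest of the 4 in Icos, Ctla4, Pdcd1 and Btla of CD4 cells. In CD8 cells no member passed 1.5-fold in any of the 5 contrasts, where 0.476% (double KO over TIGIT KO), 0.119% (double KO over CD226 KO), 0.238% (double KO or TIGIT KO over wild type) and 0.258% (CD226 KO over wild type) of 5045 genes did.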

How the data were processed

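Single-cell RNA and CD45.1 and CD45.2 antibody tags were measured in 4 libraries. The deposited values are raw UMI counts per gene and barcode, made by the authors with Cell Ranger 3.1.0 on mm10, per the submitters' processing notes. Cell calling settings and any doublet removal by the authors are not given in the sources used here. Barcodes were kept from 500 genes upward unless over 10% of their UMIs were mitochondrial. Cells were called Treg-origin or conventional from the log2 ratio of antibody counts (each plus 1) below -0.6 or above 2.2, and conventional cells CD8 or CD4 by the larger of the Cd8a plus Cd8b1 and the Cd4 UMIs. No doublet caller was run, and leaving out the 5% of cells with most UMIs was an alternative. Sums of UMIs over each class of a library were compared with edgeR 4.0.16 in R 4.3.3 (TMM, quasi-likelihood test, library as block, genes passing edgeR's expression filter, Benjamini-Hochberg adjusted p at most 0.05), which was tested on simulated data. The replicates are the 4 libraries, whose Treg genotypes differ. With the library as block, p-values set a class difference against the spread of that difference over these libraries. Genotypes, with 1 library each, were compared as ratios, called past 1.5-fold on CPM plus 1 among genes of at least 20 CPM. Intervals are exact at 95% and cover counting error only. Shares of cells were taken after thinning to 2000 UMIs, which left out 22 (double KO), 57 (TIGIT KO), 17 (CD226 KO) and 14 (wild type) Treg-origin cells. The genes named are the 5 members, all 6 ligands, per other list the 2 called genes with the largest rise and the 2 with the largest fall, and per member the 3 genes nearest by Pearson correlation of log2(CPM + 1). Names outside that rule were chosen after their values were seen. The members and lists were chosen with earlier results of these data known. Alternatives were DESeq2 1.42.0, library sizes only, no expression filter, no library block, each library left out, stricter antibody cuts (-1.5 and 3), a stricter cell filter (1000 genes, 5% mitochondrial), Gaussian mixture classes, Treg-origin cells with more Cd4 than Cd8 UMIs, thinned cells and other pseudocounts.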

Additional observations from a re-analysis of the deposited data

Results flagged for a closer look

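The difference in Pdcd1 between cells with and without an Mki67 UMI was not the same in the conventional classes. It was higher in CD8 than in CD4 cells by 0.39 on the log2 scale (edgeR interaction term, Benjamini-Hochberg adjusted p 0.010, 4 libraries), with Pdcd1 about level in CD8 cells (138 ± 12.3 CPM in Mki67-positive and 133 ± 13.8 CPM in negative cells) and lower by 0.35 in Mki67-positive CD4 cells (142 ± 25.9 CPM in positive and 181 ± 30.7 CPM in negative cells; SD, n = 4). Leaving out the CD226-KO library ended the call (0.34, adjusted p 0.11). Over the 4 libraries of wild-type conventional CD8 and CD4 cells, 10 groups in all, no member's value in a library stood apart from the others by Dixon's test, where chance alone gives about 1 in 20. Treg-origin libraries differ in genotype and are not replicates of 1 group. Dixon's test therefore does not apply to them. The gap of the double-KO Pdcd1 value there was 0.866 of the range, the largest among the 5 members.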

How the results depend on the processing

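Of 612 member differences recomputed under alternatives, 536 kept direction and call, 46 lost the call, 13 gained it and 17, none of them called, changed sign. Ctla4 and Icos kept theirs between the classes throughout. For Treg-origin against CD4 cells, Cd28 turned to 0.12 (stricter antibody cuts), 0.067 (stricter cell filter), 0.010 (without the cells of most UMIs) and 0.021 (thinned), and -0.052 to 0.024 with 1 library left out, and Btla became -0.41 with stricter cuts. Against CD8 cells, Pdcd1 became -0.078 with stricter cuts, and Btla 0.50 (stricter cuts), 0.42 (without the cells of most UMIs) and 0.52 (thinned), all called, and 0.15 to 0.39 with 1 library left out. Pdcd1 in CD8 against CD4 cells was -0.12 (no expression filter), -0.25 (stricter cuts) and -0.17 (thinned), all called, and -0.21 to -0.043 with 1 library left out.

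The Foxp3 division was the least stable: its 38 calls became 4 (DESeq2), 78 (no expression filter), 1 (no library block), 9 (stricter cuts), 22 (stricter cell filter), 15 (without the cells of most UMIs), 10 (more Cd4 than Cd8), 9 (thinned) and 20 to 46 with 1 library left out. There Cd28 turned to -0.015 without the filter and ranged from -0.037 to 0.11 with 1 library left out, and Btla turned to -0.21 with more Cd4 than Cd8. Without the library block the adjusted p there was 0.86 for Ctla4 and 0.79 for Pdcd1. Thinning, which leaves fewer UMIs, cut the genes called to 2933 (Treg-origin against CD4), 3355 (CD8 against CD4), 1603 (Cxcr5), 964, 3963 and 2501 (Mki67 in Treg-origin, CD4 and CD8) and 460 (interaction). DESeq2 called 3246 genes for CD8 against CD4 and 1012 for Mki67 in Treg-origin cells. The stricter cell filter left 1231 (Cxcr5) and 707 (interaction), stricter cuts 1379 (Mki67 in Treg-origin) and 680 (interaction), more Cd4 than Cd8 1295 (Mki67 in Treg-origin), and leaving out 1 library 751 to 853 (interaction).

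Pdcd1 with Mki67 in CD8 cells turned to 0.059 (library sizes only), 0.030 (no filter), 0.0030 (stricter cuts), 0.0035 (mixture classes), 0.010 (without the cells of most UMIs) and 0.063 (thinned), and -0.059 to 0.076 with 1 library left out. The share of calls that were higher was 50.6% there and 63.6% with library sizes only, 24.7% and 44.4% for the interaction, 53.9% and 66.1% with DESeq2 for Mki67 in Treg-origin cells, and 60.5% and 100% with DESeq2 for Foxp3. The balance in CD8 cells was 0.22 with stricter cuts. Genotype log2 ratios moved to 1.47 (stricter cuts) and 1.35 (thinned) for Pdcd1 in double KO over CD226 KO, 0.99 (stricter cuts) in double KO over wild type, all in Treg-origin cells, and in CD4 cells of double KO over TIGIT KO to 0.52 for Ctla4 and 0.50 for Pdcd1 (stricter cuts) and 0.51 for Pdcd1 (thinned). All 30 shares of cells moved with the thinning depth, and the cause of the other changes was not tested. Class comparisons were paired by library through the block, and between genotypes no paired analysis was possible because each has 1 library. Depth limits Btla most, with 151 UMIs in all Treg-origin cells.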
